A study of Homo sapiens with 30 samples.

Results

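Gene expression was compared between UMUC1 cells given UTX and UMUC1 cells given an empty vector, where both also carried a vector for wild type FGFR3. UMUC1 is an established human bladder cancer line in which UTX, the protein of the gene KDM6A, is inactivated by mutation. The 6 libraries of this comparison, 3 with UTX and 3 with the empty vector (EV), were taken by their labels out of 30 in the series, and all 19399 genes that passed a filter on low counts were tested. Each group held a pBabe-puro gateway vector with wild type FGFR3, stably expressed, together with a pCDH-blasticidin vector that was empty or carried wild type UTX. Both were grown in MEM with 10% fetal bovine serum and harvested on day 3, and RNA was purified with Qiagen RNeasy and made into libraries with NEBNext Ultra II RNA. Other libraries of the series held FGFR3 with the S249C mutation beside the same pCDH vectors (6 libraries, fitted together with these) or pSIN vectors without an FGFR3 vector (a separate experiment). The model is 1 cell line in which both genes were driven from vectors, and the labels do not say whether the 3 replicates of a group were separate cultures or whether a group came from 1 clone. The p-values therefore describe the spread of these libraries, and that spread may be technical.

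UTX is a demethylase that removes methyl groups from lysine 27 of histone H3, a mark laid down by Polycomb repressive complex 2, and it works inside the KMT2C and KMT2D complexes that methylate lysine 4 at enhancers. FGFR3 is a receptor tyrosine kinase of the urothelium that signals through FRS2 and GRB2 to the MAPK cascade, whose output includes the ETV4 and ETV5 transcription factors and the SPRY and DUSP feedback inhibitors. Both genes are often mutated in bladder cancer. The comparison asks how UTX changed expression where extra wild type FGFR3 was present.

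The vector genes followed their labels. KDM6A (chrX:44873177-45112602, plus strand, protein coding, by GENCODE v29 coordinates in GRCh38) stood at 15, 17.0 and 15.5 CPM (counts scaled to a common library size with TMM factors) with the empty vector. With UTX it stood at 863, 869 and 739 CPM, far above all 3 EV libraries (log2 fold change 5.70 ± 0.13, adjusted p = 5.8e-13). Values after ± are approximate standard errors, worked back from the test and not fitted. Each is the size of the log2 fold change divided by the square root of the F statistic of edgeR's test. FGFR3 (chr4:1793293-1808872, plus strand, protein coding) was at 1227, 1377 and 1298 CPM with the empty vector and at 1288, 1246 and 1194 CPM with UTX. Its 2 groups overlapped and no difference was called (log2 fold change -0.07 ± 0.05, adjusted p = 0.46). Gene counts do not separate RNA of the vectors from RNA of the cells' own genes. The line's epithelial and urothelial markers were present in both groups: mean EPCAM was 289.8 CPM with the empty vector and 321.5 CPM with UTX, mean KRT8 was 2192 and 2107 CPM, mean GATA3 was 54.5 and 48.4 CPM, and mean TP63 was 127 and 115.1 CPM.

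The 6 libraries held 21672408 to 26051649 counts, and the median coefficient of variation of a gene over 3 replicates was 6.61% with the empty vector and 6.7% with UTX. Markers of other cells were scarce: 5 of 10 fibroblast markers were high enough to test, with summed levels of 30.9 to 32.4 CPM with the empty vector and 23.25 to 26.8 CPM with UTX, and 6 of 9 leukocyte and endothelial markers summed to 11.4 to 12.5 and 10.8 to 11.5 CPM. In the S249C libraries, which entered the p-values here through the shared spread, EV replicate 1 stood apart with a summed mitochondrial RNA of 9933 CPM against 16780 and 19370 CPM in the other two of its group, and UTX replicate 3 lay at -15.5 on the second principal component, against -4.06 and -4.61 for the other two of its group. In bulk RNA, fewer cells of a kind and less RNA per cell cannot be told apart.

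Between the UTX and EV groups, 2924 genes differed at an adjusted p under 0.05 (edgeR's quasi-likelihood test, Benjamini-Hochberg adjustment over all genes tested). The test called 1758 genes higher, 9.06% of those tested, and 1166 lower, 6.01%. Most changes were small. The median log2 fold change was 0.40 among genes called higher and -0.32 among genes called lower, and 211 genes (1.09%) rose and 200 (1.03%) fell by at least 2-fold. In 2905 of the called genes the 3 UTX and the 3 EV libraries did not overlap, against 34.7% of all genes tested. The count of lower genes was 758 without EV replicate 3, and 1878 without the pair of S249C libraries that stood apart, against 1166 with all 12 libraries.

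**Figure D1:**
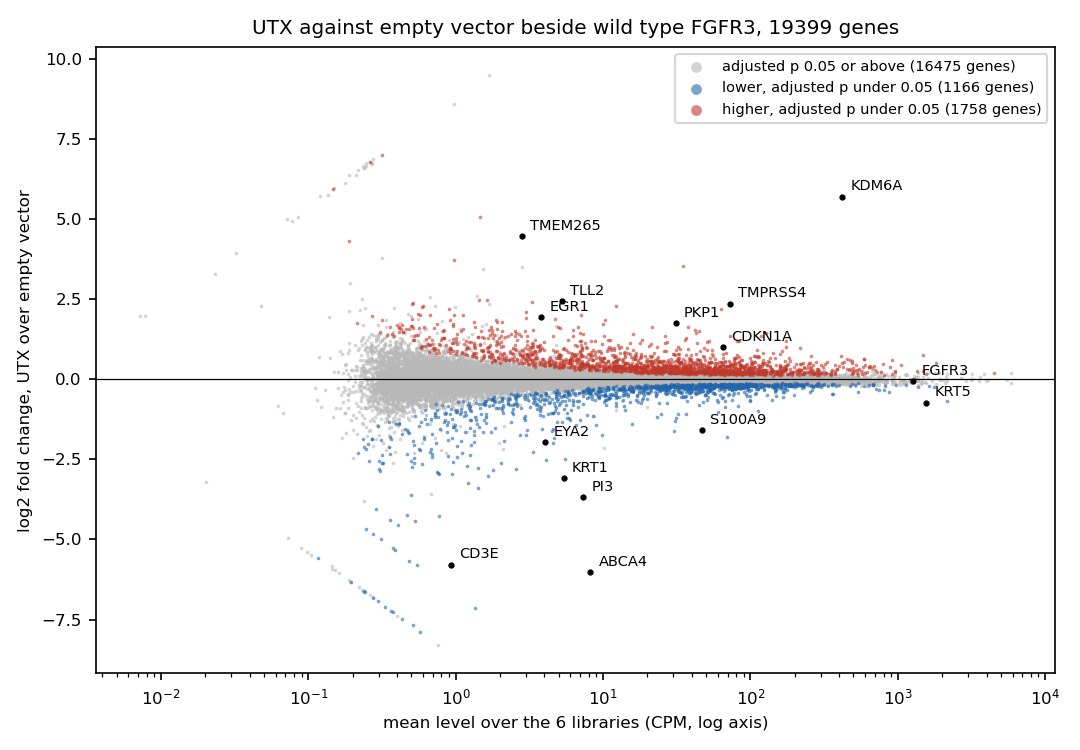
Each point is a gene, placed by its mean level over the 6 libraries (CPM, log axis) and its log2 fold change with UTX against the empty vector; red and blue mark the 1758 genes called higher and the 1166 called lower. KDM6A stands out at a log2 fold change of 5.70 and ABCA4 at -6.03, FGFR3 lies at -0.07, and most coloured points lie within 1 log2 unit of 0.

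Among genes that rose, those with the largest fold changes included a cell surface protease, a tetraspanin and an immediate early transcription factor. TMPRSS4 (chr11:118077012-118121890, plus strand), a transmembrane serine protease, was at 22.9, 24.0 and 24.1 CPM with the empty vector and at 121, 124 and 120 CPM with UTX. All 3 UTX libraries lay far above the EV libraries (log2 fold change 2.36 ± 0.07, adjusted p = 7.4e-12). TSPAN1 (chr1:46175073-46185958, plus strand), a tetraspanin of epithelial membranes, was at 22.8, 22.3 and 22.1 CPM and at 99.5, 104 and 105 CPM (2.20 ± 0.05, adjusted p = 5.8e-13). EGR1, a zinc finger factor induced early after MAPK signalling, was low with the empty vector, at 1.25, 1.64 and 1.81 CPM. With UTX it was at 6.14, 6.15 and 5.89 CPM, above every EV library (1.94 ± 0.15, adjusted p = 4.8e-07). PPP1R14C, an inhibitor of protein phosphatase 1, rose from a mean of 4.13 CPM to 20.3 CPM (2.29 ± 0.14), and ATG9B, an autophagy membrane protein, from 4.45 to 16.1 CPM (1.85 ± 0.12). TMEM265 was nearly absent with the empty vector, at 0, 0.459 and 0.237 CPM, and stood at 5.41, 4.61 and 6.12 CPM with UTX (4.46 ± 0.47, adjusted p = 9.7e-06). The other largest rises were in TLL2, a metalloprotease (2.44), ST6GALNAC2, a sialyltransferase (2.42), C1orf21 (2.10), FEZ1, a kinesin adaptor (1.99), PRRT4 (1.90) and RAB38, a small GTPase of melanosome transport (1.90). IGFBP2 (chr2:216632828-216664436, plus strand), which binds insulin-like growth factors, rose more than all of these but TMEM265: it was at 5.26, 6.04 and 5.13 CPM with the empty vector and at 61.5, 61.9 and 68.2 CPM with UTX (3.54 ± 0.11, adjusted p = 2.2e-11). IGFBP2, and MAP2 and SPP1 among the falls, were named after their values were seen, because the rule for names left out symbols that end in P and a digit.

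The largest falls took in proteins of keratinized epithelium and several genes better known from other tissues. ABCA4 (chr1:93992835-94121132, minus strand), a lipid transporter of photoreceptors, was at 14.6, 17.5 and 16.1 CPM with the empty vector and at 0.346, 0.186 and 0.195 CPM with UTX (log2 fold change -6.03 ± 0.18, adjusted p = 1.0e-11). Its UTX libraries held 8, 4 and 5 counts, so its ± value is rough. PI3, the elastase inhibitor elafin, was at 13.4, 14 and 13.4 CPM and at 0.692, 1.02 and 1.40 CPM (-3.69 ± 0.23, adjusted p = 5.2e-08). For both genes every EV library lay at least several-fold above every UTX library. KRT1, a keratin of the upper epidermis, fell from a mean of 9.68 to 1.13 CPM (-3.09 ± 0.27). S100A8 fell from 9.45 to 1.67 CPM (-2.49 ± 0.18), and S100A9, with which it forms calprotectin, was at 68.0, 70.9 and 72.3 CPM with the empty vector and 23.9, 23.1 and 23.3 CPM with UTX (-1.59 ± 0.12, adjusted p = 3.3e-07). CALML3, a calmodulin-like protein of stratified epithelium, was at 5.69, 5.24 and 5.83 CPM and at 0.865, 1.17 and 1.40 CPM (-2.27 ± 0.18). EYA2, a transcriptional coactivator with phosphatase activity, was at 6.46, 6.12 and 6.78 CPM and at 1.64, 1.82 and 1.48 CPM (-1.97 ± 0.17). The groups did not overlap for any of these. SPP1 (chr4:87975650-87983426, plus strand), which encodes osteopontin, fell from a mean of 108.4 to 31.0 CPM (-1.80 ± 0.07), and MAP2, a microtubule-associated protein, from 6.98 to 1.22 CPM (-2.51 ± 0.17). The remaining large falls were in ALPG, a germ cell alkaline phosphatase (-2.81), CYP1A2, a target of the aryl hydrocarbon receptor (-2.61), PALM (-2.0), GNG11, a G protein subunit (-1.93), FHL1, a LIM domain protein (-1.82), and PDE6A, a phosphodiesterase of rods (-1.75).

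The counts of each gene list stand beside shares over all genes tested of 9.06% higher and 6.01% lower. FGFR signalling genes come first among the gene lists, since both groups carried the FGFR3 vector. Of 17 FGF receptors, ligands, adaptors and coreceptors tested, 3 rose and 6 fell, with a median log2 fold change of -0.16 against 0.001 over all genes tested. The ligand FGF7, which signals through FGFR2, was at 84.8, 88.8 and 86.8 CPM with the empty vector and at 47.0, 47.7 and 47.6 CPM with UTX. Its groups lay far apart (log2 fold change -0.87 ± 0.06, adjusted p = 1.2e-07). The receptors FGFR4 (-0.69 ± 0.15) and FGFR1 (-0.74 ± 0.19) and the decoy receptor FGFRL1 (-0.44 ± 0.07) fell, as did FGFBP1, a carrier that releases FGFs from the matrix (-0.33 ± 0.06), while FGFR2 was at a mean of 265 CPM and 247.1 CPM (-0.10, adjusted p over the threshold). The call on FGFR1 was lost without EV replicate 2, UTX replicate 1 or UTX replicate 3, at adjusted p of 0.084, 0.063 and 0.060. The heparan sulfate coreceptors went the other way: SDC4 was at 380, 379 and 374 CPM and at 556, 566 and 582 CPM (0.59 ± 0.05, adjusted p = 6.4e-07), and SDC1 rose by less (0.35 ± 0.05). GAB1, a docking protein downstream of receptor kinases, also rose (0.74 ± 0.12).

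The MAPK feedback and target genes split. Of 24 tested, 4 rose and 7 fell, with a median of -0.06. ETV5, an ETS factor that follows FGFR activity, was at 12.8, 13.8 and 12.7 CPM with the empty vector and at 8.48, 8.20 and 8.73 CPM with UTX (-0.63 ± 0.08, adjusted p = 6.4e-05). ETV4 (-0.38 ± 0.08) fell with it, and so did the feedback inhibitors SPRY4 (-0.50 ± 0.08) and SPRED1 (-0.39 ± 0.05). The 4 genes of the list that rose were EGR1, described above, IER3, KCNN4 and the feedback inhibitor DUSP5. The call on DUSP5 was lost without EV replicate 1, 2 or 3 or UTX replicate 1 or 3, at adjusted p of 0.055 to 0.0975. IER3, an early response gene, was at 40.4, 38.9 and 38.8 CPM and at 58.3, 59.4 and 61.2 CPM (0.60 ± 0.06, adjusted p = 5.2e-06), and KCNN4, a potassium channel, rose as well (0.45 ± 0.06). DUSP6, the phosphatase most often read as an ERK reporter, was at a mean of 57.1 and 59.5 CPM, and its difference of 0.06 did not pass the test. Neither did CCND1 (-0.11), MYC (-0.04), SPRY2 (-0.08) or PHLDA1 (-0.05). CCND1 was called lower by DESeq2 (adjusted p = 0.015) and without the pair of S249C libraries that stood apart (0.024).

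Among 14 ERBB receptors and ligands tested, 4 rose and none fell, with a median of 0.12. HBEGF, a ligand of EGFR, was at 23.6, 22.3 and 19.7 CPM with the empty vector and at 35.9, 38.1 and 40.5 CPM with UTX (0.80 ± 0.08, adjusted p = 3.7e-06). TGFA, another EGFR ligand, rose by 0.25 ± 0.05 and the receptor ERBB2 by 0.23 ± 0.04, and the UTX libraries were the higher ones without overlap in each. The call on ERBB3 (0.18 ± 0.05, adjusted p = 0.036) was lost without any single one of 5 libraries of this comparison, at adjusted p of 0.070 to 0.16. EGFR itself was at a mean of 955.4 and 867.9 CPM, with no difference called. AREG (0.13) and EREG (-0.08) did not pass the test, although AREG did with the 6 libraries alone (adjusted p = 0.0329). Of 11 AP-1 factors, which pair as FOS, JUN, ATF and MAF proteins at promoters and enhancers, 5 rose and 1 fell. ATF3 was at 10.4, 9.71 and 9.90 CPM and at 15.3, 16.6 and 15 CPM (0.65 ± 0.09, adjusted p = 0.00018), JUNB rose by 0.27 ± 0.06, and FOSL1 fell by 0.29 on the log2 scale. FOS (0.10) and JUN (0.05) did not pass. The count of AP-1 factors that rose was 2 without EV replicate 1, 3 without UTX replicate 1 and 3 without UTX replicate 3.

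**Figure D2:**
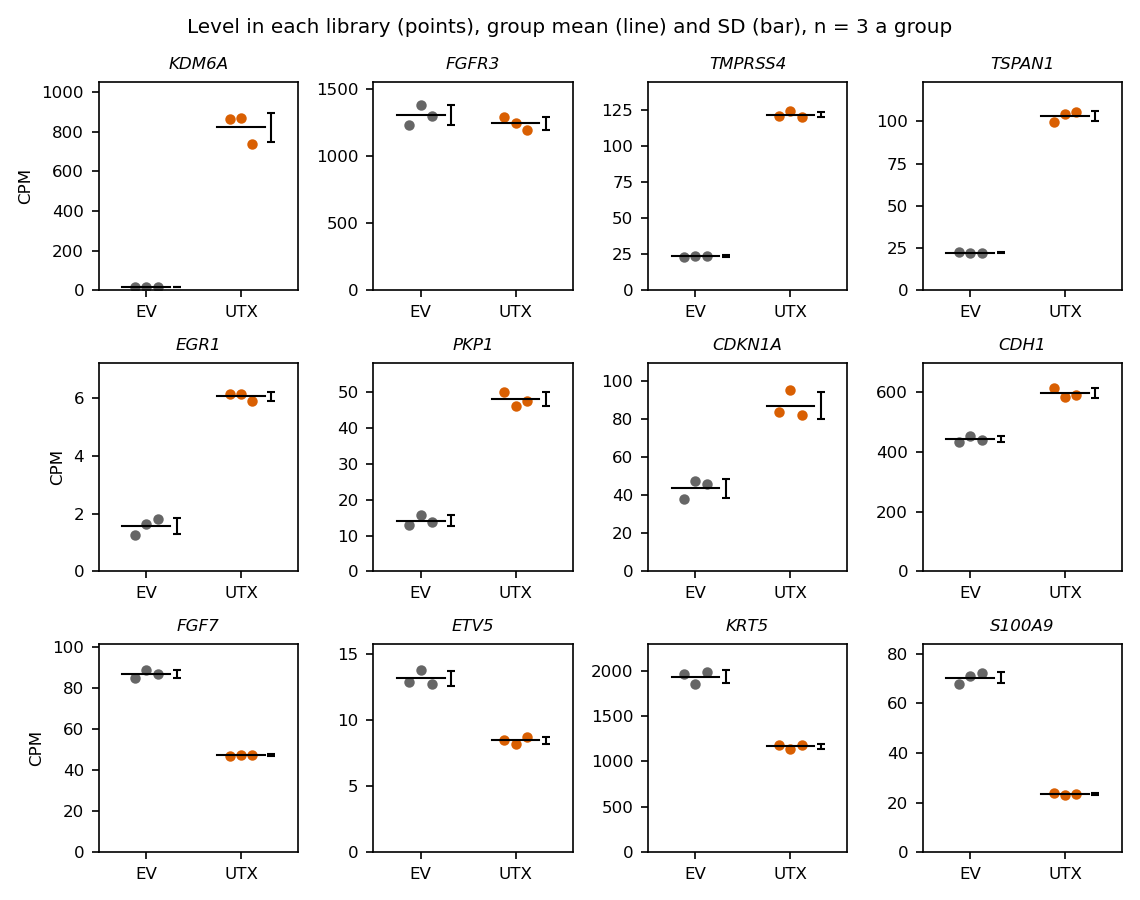
The level of 12 genes in each library (CPM, linear axes from 0), with the empty vector (EV, grey) and with UTX (orange); lines are group means and bars are SD, n = 3. The 2 groups overlap for FGFR3, and do not overlap for the 11 others, of which FGF7, ETV5, KRT5 and S100A9 are lower with UTX.

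Cell junction genes had calls in nearly 1 direction. Of 16 tight junction and adherens genes tested, 9 rose and none fell, with a median of 0.20. CDH1, the E-cadherin of epithelial contacts, was at 433, 452 and 438 CPM with the empty vector and at 614, 583 and 588 CPM with UTX (log2 fold change 0.43 ± 0.05, adjusted p = 4.7e-05). CLDN1, a claudin of tight junctions, was at 135, 144 and 132 CPM and at 209, 206 and 198 CPM (0.58 ± 0.05, adjusted p = 1.1e-06). Every UTX library was higher than every EV library for both. The scaffolds CGN (0.67 ± 0.06) and TJP3 (0.93 ± 0.11) and the sealing proteins CLDN4 (0.38 ± 0.06) and OCLN (0.26 ± 0.05) rose as well, whereas EPCAM (0.15) did not pass the test with all 12 libraries and did without the pair of S249C libraries that stood apart (adjusted p = 0.039). Of 11 desmosome genes, 6 rose and 1 fell. PKP1, a plakophilin that anchors keratin filaments to desmosomes, changed most, from 13.0, 15.8 and 13.8 CPM to 50.2, 46.3 and 47.7 CPM (1.76 ± 0.07, adjusted p = 7.1e-10). DSP, the desmoplakin (0.54 ± 0.09), JUP, the plakoglobin (0.38 ± 0.05), and PKP2 (0.35 ± 0.04) also rose. The 1 fall, in the epidermal cadherin DSG1, was from a mean of 0.521 to 0.085 CPM (-2.54 ± 0.68, adjusted p = 0.019), and was lost without EV replicate 3, UTX replicate 2 or UTX replicate 3. DESeq2 called 0 desmosome genes lower.

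Luminal genes, which mark the differentiated urothelial layers, did not move together. Of 27 tested, 8 rose and 10 fell, with a median of -0.06. The uroplakins of the luminal membrane differed from each other: UPK2 was at 13.0, 14.1 and 13.4 CPM with the empty vector and at 23.3, 21.9 and 22 CPM with UTX (0.73 ± 0.08, adjusted p = 1.4e-05), UPK3B rose (0.48 ± 0.06), UPK1B did not pass the test (0.11) except without the pair of S249C libraries that stood apart (adjusted p = 0.0256), and UPK1A fell from a mean of 1.72 to 0.449 CPM (-1.91 ± 0.38). CYP2J2, an epoxygenase, rose (0.58 ± 0.07). KRT13, a keratin of the intermediate layer, fell by 0.40 on the log2 scale, and so did KRT7 (-0.35 ± 0.06), FABP4 (-0.64 ± 0.09) and KRT20, the umbrella cell keratin, which was near absent (a mean of 0.848 and 0.14 CPM). Among lineage factors, GATA3 (-0.17) and FOXA1 (-0.03) did not pass the test, although GATA3 did when the 6 libraries were fitted alone (adjusted p = 0.013). PPARG fell by 0.16 (adjusted p = 0.032), a call that was lost when any 1 of the 6 libraries was left out, at adjusted p of 0.060 to 0.11.

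More basal genes rose than fell, but their best known keratin fell. Of 20 tested, 8 rose and 2 fell, with a median of 0.20. KRT5 (chr12:52514575-52520687, minus strand), the keratin of the basal layer, was at 1967, 1847 and 1985 CPM with the empty vector and at 1185, 1137 and 1182 CPM with UTX, with no overlap (-0.73 ± 0.04, adjusted p = 1.6e-08). Its partner KRT14 was at a mean of 51.6 and 50.0 CPM and did not pass the test (-0.04), nor did KRT6A (-0.08) or TP63 (-0.14), although DESeq2 called KRT6A lower (adjusted p = 0.0163) and edgeR called TP63 lower with the 6 libraries alone (adjusted p = 0.0424). The second fall was in KRT6C (-1.88), and the count of falls in the list was 1 without EV replicate 1, EV replicate 2 or any single UTX replicate. The rises included COL17A1, a hemidesmosome collagen that anchors basal cells, which was at 424, 492 and 463 CPM and at 730, 752 and 660 CPM (0.64 ± 0.07, adjusted p = 1.9e-05), and the laminin chains LAMA3 (0.44 ± 0.08) and LAMB3 (0.26 ± 0.05) rose. CDH3, the P-cadherin, rose by 0.43 ± 0.05 and the hyaluronan receptor CD44 by 0.49 ± 0.07.

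Squamous genes were divided. Of 12 genes of the cornified envelope and its keratins tested, 3 rose and 3 fell, and of 15 serpins and S100 proteins of stratified epithelium 4 rose and 5 fell. KRT4 (-2.37 ± 0.32) and KRT10 (-0.51 ± 0.07) fell with KRT1, and SERPINB3 fell from a mean of 2.05 to 0.317 CPM (-2.69 ± 0.31). In the opposite direction, SCEL, a precursor of the cornified envelope, was at 25.3, 25.5 and 26.6 CPM and at 52.6, 51.8 and 44.5 CPM (0.94 ± 0.07, adjusted p = 2.0e-07), and SERPINB2 was at 22.8, 20.5 and 21.2 CPM and at 43.0, 44.8 and 41.4 CPM (1.00 ± 0.07, adjusted p = 1.1e-07). In both, each UTX library was higher than each EV library. IVL, which encodes involucrin, rose by 0.26 ± 0.05. Of 12 mesenchymal genes 3 rose and 2 fell: MMP2, a gelatinase (0.63 ± 0.05), and FN1, fibronectin (0.61 ± 0.10), were higher, and CDH2, the N-cadherin (-0.48 ± 0.07), and SNAI2, a repressor of E-cadherin (-0.36 ± 0.05), were lower. VIM was at a mean of 1.14 and 0.780 CPM and was not called. Of 22 collagen, integrin and laminin genes 4 rose and 5 fell. COL4A1, a basement membrane collagen, fell by 0.49 on the log2 scale, and the integrins ITGAV (0.36 ± 0.05) and ITGB6 (0.28 ± 0.05) rose. The count of falls in that list was 3 without EV replicate 2, UTX replicate 1 or UTX replicate 3.

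Genes of DNA replication fell by small amounts. Of 20 tested, 14 fell and none rose, and all 20 fitted log2 fold changes were negative, from -0.36 to -0.07, with a median of -0.17. MCM10, which helps start replication forks, was at 44.9, 43.8 and 45.9 CPM with the empty vector and at 35.2, 35.6 and 34.4 CPM with UTX (-0.36 ± 0.06, adjusted p = 0.00053). GINS1, a subunit of the replicative helicase, was at 80.7, 82.2 and 87.3 CPM and at 68.8, 65.3 and 67.0 CPM (-0.31 ± 0.06, adjusted p = 0.0019). In each gene all 3 UTX libraries were below all 3 EV libraries. The MCM helicase subunits fell by less, for example MCM3 (-0.20 ± 0.04), MCM4 (-0.17 ± 0.04) and MCM7 (-0.17 ± 0.04). With a single library left out the count of falls was 8 (EV replicate 1), 6 (EV replicate 3), 8 (UTX replicate 1), 9 (UTX replicate 2) and 9 (UTX replicate 3). Of 20 mitotic genes tested, with fitted values from -0.23 to -0.001, 1 fell (5%, against 6.01% of all genes tested). It was the kinase AURKB (-0.23 ± 0.06), which was not called without UTX replicate 1 (adjusted p = 0.069). MKI67 was at a mean of 561.8 and 561.5 CPM. Without the pair of S249C libraries that stood apart, 6 of the 20 mitotic genes were called lower. Of 18 G1 cyclins, kinases and inhibitors 2 rose (11.1%, against 9.06% of all genes tested) and 3 fell (16.7%, against 6.01%). CDKN1A, the p21 inhibitor of cyclin-dependent kinases, was at 37.9, 47.3 and 45.7 CPM and at 83.9, 95.1 and 81.9 CPM (0.99 ± 0.09, adjusted p = 1.4e-06), and CDKN2B, the p15 inhibitor, was at 47.1, 48.0 and 44.8 CPM and at 64.7, 65.3 and 68.7 CPM (0.51 ± 0.05, adjusted p = 9.3e-06). All UTX libraries were above all EV libraries for both inhibitors. CDK4 fell (-0.23 ± 0.05), as did CDKN1C, which was low (a mean of 1.25 and 0.59 CPM), and CDKN1B, the p27 inhibitor, did not pass the test (-0.08).

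Interferon-stimulated genes were called in 1 direction. Of 24 tested, 10 rose and none fell, with a median of 0.32. IFIT2, an antiviral protein that binds RNA, was at 10.4, 9.86 and 10.2 CPM with the empty vector and at 15.5, 15.3 and 13.5 CPM with UTX (0.54 ± 0.07, adjusted p = 0.00011). STAT2, a subunit of the interferon-activated factor ISGF3, was at 48.7, 51.5 and 48.8 CPM and at 67.5, 62.7 and 60.3 CPM (0.35 ± 0.06, adjusted p = 0.00056). OASL, related to the sensors of viral RNA, was low, at a mean of 0.771 CPM and 2.20 CPM (1.5 ± 0.26), and IFIT3 was at 14.3, 13.8 and 14.2 CPM and at 17.9, 18.4 and 18.6 CPM (0.38 ± 0.08, adjusted p = 0.0041). The groups were separate in all 4 genes. Rises were also called for ISG15 (0.45 ± 0.11), OAS1 (0.31 ± 0.08) and OAS3 (0.22 ± 0.07), and MX1 was not called (0.35). The count was 4 without EV replicate 3 and 4 without UTX replicate 2, and the calls on IFI6, ISG15 and OAS3 were among those lost without EV replicate 3, at adjusted p of 0.18, 0.070 and 0.087. The call on OAS3 was also lost without EV replicate 1 or 2 or UTX replicate 1 or 2 (0.074 to 0.126). That on IFI6 was also lost without EV replicate 2 or UTX replicate 2 or 3 (0.066 to 0.198), and that on ISG15 without UTX replicate 2 (0.080). OAS1 lost its call without EV replicate 3, UTX replicate 1 or UTX replicate 2 (0.053 to 0.062).

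Promoters of these genes were examined because interferon-stimulated genes have a known response element. All calls in the list were higher, but 14 of its 24 tested genes were not called. The interferon-stimulated response element, searched on both strands as GAAA, any 2 bases and GAAA, was in 4 of the 6 promoters at hand of the list's genes called higher (RefSeq, GRCh38.p14, 250 bases before to 50 bases after the gene start), namely IFIT3, IFI6, ISG15 and OAS3, and not in those of STAT2 and OAS1. It was in 11 of 16 promoters at hand over the tested list, whether or not the gene was called (68.8%). Its share was 2.73% of the 12152 promoters at hand of all genes tested and 3.65% of all 27305 promoters of the table. It was 3.98% of those of genes called higher and 1.91% of those of genes called lower. Stretches that end before the gene start are printed 5′ to 3′ on the gene's strand, with each match in capitals; a match is a description of letters and not a measured site. These 4 were chosen after their values were seen. The stretches are chr10:89327811-89327914 (plus strand) for IFIT3, chr1:27672246-27672378 (minus strand) for IFI6, chr1:1013354-1013429 (plus strand) for ISG15 and chr12:112938301-112938370 (plus strand) for OAS3. In ISG15 the capitals hold 2 overlapping matches. The OAS3 promoter holds 2 matches, and the one nearer the gene start lies outside the printed stretch.
IFIT3: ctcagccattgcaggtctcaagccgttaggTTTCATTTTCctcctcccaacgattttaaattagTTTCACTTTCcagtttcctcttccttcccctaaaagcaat
IFI6: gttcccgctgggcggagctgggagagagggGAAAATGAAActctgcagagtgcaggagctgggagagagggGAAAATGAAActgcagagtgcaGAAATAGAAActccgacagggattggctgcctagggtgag
ISG15: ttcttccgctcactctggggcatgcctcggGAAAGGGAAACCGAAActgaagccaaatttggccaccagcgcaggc
OAS3: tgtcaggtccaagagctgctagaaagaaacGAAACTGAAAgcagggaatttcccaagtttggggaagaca

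Antigen presentation genes and NF-kB targets had more calls higher than lower. Of 15 genes of class I and class II antigen presentation and their regulators tested, 7 rose and none fell, with a median of 0.20. B2M, the constant chain of class I molecules, was at 533, 503 and 486 CPM with the empty vector and at 652, 679 and 723 CPM with UTX (0.43 ± 0.06, adjusted p = 6.4e-05). The peptide transporter TAP2 (0.43 ± 0.06), the loading factor TAPBP (0.30 ± 0.06) and HLA-E (0.32 ± 0.06) rose, and the count was 4 without EV replicate 3 and 4 without UTX replicate 2. Of 18 NF-kB targets and cytokines, 10 rose and 2 fell, with a median of 0.32. IL1RN, the interleukin-1 receptor antagonist, was at 1.51, 1.49 and 1.58 CPM and at 4.20, 4.38 and 4.52 CPM (1.51 ± 0.14, adjusted p = 1.8e-06). TNFAIP3, an inhibitor of NF-kB signalling, was at 10.5, 11.5 and 11.6 CPM and at 19.6, 18.9 and 18.9 CPM (0.77 ± 0.09, adjusted p = 1.6e-05), and IL1B was at 43.8, 43.1 and 44.6 CPM and at 57.2, 58.0 and 61.5 CPM (0.43 ± 0.05, adjusted p = 5.3e-05). The groups did not overlap in these 3 genes. IL6 rose from a mean of 0.854 to 1.81 CPM, ICAM1 by 0.49 ± 0.10 and NFKB2 by 0.34 ± 0.06. One fall was in the chemokine CXCL1 (-0.81 ± 0.19), not called without UTX replicate 1 (adjusted p = 0.057). The other was in SOD2, whose counts are uncertain because 2 identifiers of the table carry that name. An NF-kB site, searched on both strands as GGGA, any 2 bases and TTCC, was in 5 of the 14 promoters at hand of this list. Its share was 1.52% of the promoters of all genes tested and 1.63% of all promoters in the table. It was 1.91% of those of genes called higher and 2.58% of those of genes called lower. Among the list's genes called higher, the site was in the promoters of TNFAIP3 and IL6.

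Several smaller groups gave mixed results. Of 15 Notch genes 3 rose and 5 fell. NRARP, a feedback inhibitor of Notch, was at 17.9, 17.6 and 17.4 CPM with the empty vector and at 9.60, 9.36 and 10.7 CPM with UTX (-0.83 ± 0.08, adjusted p = 2.4e-06). The target HEY1 was at 7.46, 6.34 and 7.61 CPM and at 3.89, 3.49 and 3.94 CPM (-0.91 ± 0.12, adjusted p = 6.7e-05), whereas HES1 (-0.01) and the ligand JAG1 (0.03) did not pass the test. LFNG, a glycosyltransferase that modifies Notch, rose by 0.39 ± 0.05. Of 20 YAP and TGF-beta targets 6 rose and 1 fell. CCN1, a matrix protein, was at 186, 197 and 178 CPM and at 254, 280 and 271 CPM (0.52 ± 0.07, adjusted p = 8.9e-05). The receptor kinase AXL fell by 0.45 on the log2 scale, and CCN2 was low and not called (-0.24). Without the pair of S249C libraries that stood apart, 10 of the 20 were called higher and 4 lower.

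Of 17 PPAR and retinoid genes 7 rose and 1 fell. CRABP2, which carries retinoic acid to its receptor, was at 9.83, 9.71 and 9.97 CPM and at 17.9, 18.4 and 21.3 CPM (0.97 ± 0.08, adjusted p = 1.2e-06), and CPT1A, the entry enzyme of mitochondrial fat oxidation, was at 103, 104 and 103 CPM and at 140, 138 and 135 CPM (0.41 ± 0.05, adjusted p = 2.9e-05). All UTX libraries exceeded all EV libraries in both. DHRS3, a retinal reductase (0.44 ± 0.05), ALDH1A3, which makes retinoic acid (0.36 ± 0.05), and the receptor RARG (0.38 ± 0.05) rose, and RARRES1 fell from a mean of 1.5 to 0.501 CPM.

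Of 24 cholesterol synthesis genes none rose and 4 fell, with a median of 0.03; the count was 0 to 2 with any 1 of the 6 libraries left out, for example 0 without UTX replicate 1. Of 15 fatty acid genes 3 rose and 3 fell. The desaturase SCD was at 148, 154 and 149 CPM and at 106, 110 and 105 CPM, with no overlap (-0.49 ± 0.04, adjusted p = 2.0e-06), while ACSL1, which activates fatty acids, rose (0.53 ± 0.07) and FASN was at a mean of 499.5 and 500.8 CPM. The count of fatty acid genes that rose was 1 without EV replicate 1, EV replicate 3 or UTX replicate 2. Of 25 hypoxia and glycolysis genes 5 rose and none fell, among them NDRG1 (0.62 ± 0.06) and EGLN3, an oxygen sensor (0.68 ± 0.12). PHGDH, the first enzyme of serine synthesis, was at 126, 122 and 127 CPM and at 90.7, 90.0 and 96.3 CPM (-0.44 ± 0.05, adjusted p = 9.0e-06). Of the 18 serine and ATF4 genes 2 rose (11.1%, against 9.06% of all genes tested) and 3 fell (16.7%, against 6.01%). The falls there were 1 without EV replicate 3, UTX replicate 1 or UTX replicate 3. Of 18 NRF2 targets none rose and 3 fell, including GCLC, an enzyme of glutathione synthesis (-0.28 ± 0.04), and AKR1C2, an aldo-keto reductase with near-identical paralogs, whose counts are uncertain for that reason (-0.51 ± 0.07).

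Chromatin partners of UTX gave few calls. None of the 9 KMT2C and KMT2D complex genes was called, with fitted log2 fold changes from -0.18 to 0.02; KMT2C was at a mean of 106.1 and 98.0 CPM and KMT2D at 221.2 and 197.6 CPM. By edgeR's unadjusted p under 0.05 the count for these 9 genes was 0, by DESeq2's adjusted p it was 0, and without the pair of S249C libraries that stood apart edgeR called 2 lower. Of 12 genes of Polycomb repressive complex 2, taken with the related demethylase KDM6B, 1 rose (8.33%) and 3 fell (25%). These changes were at most 0.27 on the log2 scale. The catalytic subunit EZH2 fell by 0.16 (adjusted p = 0.019), a call lost without EV replicate 3, UTX replicate 2 or UTX replicate 3. KDM6B was not called (0.19), but was with the 6 libraries alone (adjusted p = 0.0389). Of 25 HOX genes, classical Polycomb targets, none rose and 3 fell: HOXB9 (-0.89 ± 0.17), HOXA13 (-0.50 ± 0.12) and HOXA5 (-0.33 ± 0.10). The call on HOXA5 was lost when EV replicate 1, 2 or 3, UTX replicate 1 or 2 or UTX replicate 1 beside S249C was left out and by DESeq2 (adjusted p = 0.11), and that on HOXA13 without UTX replicate 3 (adjusted p = 0.0538).

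Where a list had 0 calls in a direction by edgeR's adjusted p, its members at an unadjusted p under 0.05 in that direction were 0 for tight junction, ERBB and antigen presentation genes (lower) and for DNA replication, mitotic and NRF2 genes (higher), 1 for interferon genes (lower), 1 for cholesterol and 1 for HOX genes (higher), and 5 for hypoxia and glycolysis genes (lower). DESeq2 called 0 in those directions except for 3 hypoxia and glycolysis genes.

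**Figure D3:**
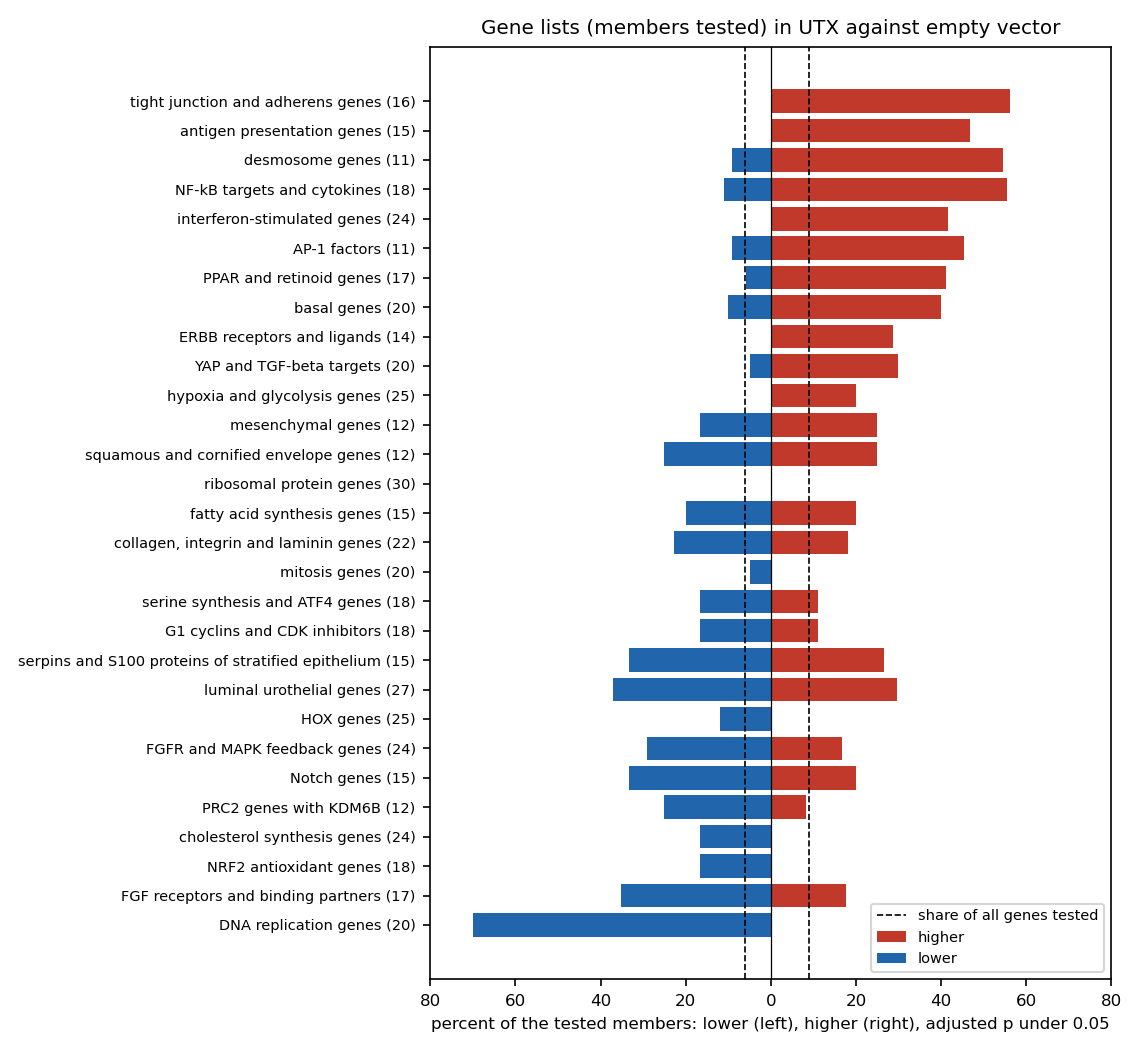
For each gene list with at least 10 members tested (number in brackets; mitochondrial RNA is not drawn), bars give the percent of members called higher (red, right) and lower (blue, left) at an adjusted p under 0.05, and dashed lines give the same percent over all genes tested, 9.06% higher and 6.01% lower. Tight junction genes (56.2% higher) and DNA replication genes (70% lower) have the longest bars on each side, and luminal genes have long bars on both.

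Some values moved with the groups without belonging to these programs. The summed level of the 13 mitochondrial messenger RNAs was 20700 to 22840 CPM with the empty vector and 23510 to 25820 CPM with UTX, and none of the 13 was called by edgeR or DESeq2 (0 at an unadjusted p under 0.05), with a median log2 fold change of 0.20; 10 of the 13 were called higher when the 6 libraries were fitted alone. The 30 ribosomal protein genes had a median of -0.11 and none was called by edgeR, against 12 lower at an unadjusted p under 0.05, 5 lower by DESeq2 and 11 lower with the 6 libraries alone. Their part in the results above was not tested. Of the fibroblast markers LUM, a matrix proteoglycan, fell from 7.33, 7.11 and 8.36 CPM to 3.24, 2.65 and 3.04 CPM (-1.35 ± 0.12), and COL1A1 was at a mean of 22.7 and 21.5 CPM and not called. CD3E, a T cell gene, had 137 counts over the EV libraries and 2 over the UTX libraries, a ratio of 64.4 (95% counting interval 17.5 to 537, covering counting error only), and PTPRC, which marks leukocytes, was at a mean of 0.304 and 0.0989 CPM and not called.

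The UTX effect beside wild type FGFR3 was compared with that beside FGFR3 S249C by the interaction term of the same fit. FGFR3 itself was at a mean of 1301 CPM (EV) and 1243 CPM (UTX) with the wild type vector and at 2322 and 2588 CPM with the S249C vector, so the form of FGFR3 and its level cannot be told apart. Beside S249C, 2499 genes were higher (12.9%) and 1672 lower (8.62%) with UTX. Higher beside both forms were 1370 genes, 77.9% of those beside wild type and 54.8% of those beside S249C, and lower beside both were 611 genes, 52.4% and 36.5%. The 2 comparisons have their own EV and UTX libraries but share 1 estimate of the spread. The difference itself was called for 133 genes (0.686% of those tested): 111 had a lower log2 fold change beside wild type FGFR3 and 22 a higher one. Of the 924 genes called beside wild type FGFR3 alone, the difference was called for 31. The count of differences was 260 without the pair of S249C libraries that stood apart, and from 58 to 248 with a single one of the 12 libraries left out. It was lowest without EV replicate 3 beside wild type FGFR3 and highest without UTX replicate 3 beside S249C.

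**Figure D4:**
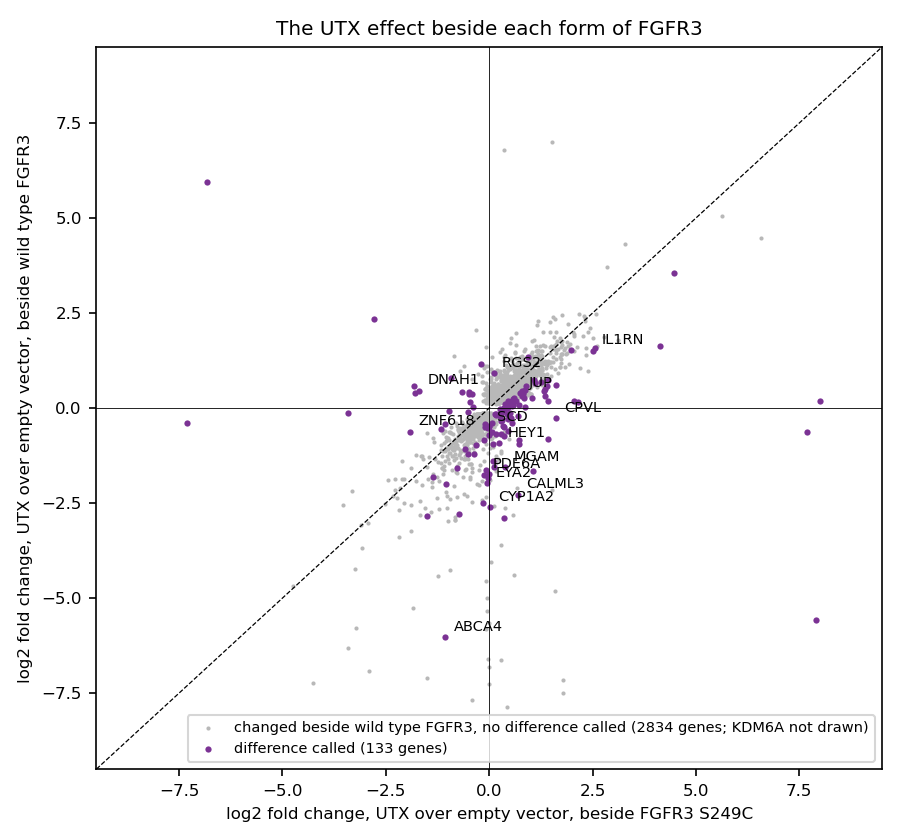
Log2 fold change with UTX beside FGFR3 S249C (horizontal) and beside wild type FGFR3 (vertical), in grey for genes called beside wild type FGFR3 with no difference called and in purple for the 133 genes with a difference called; the dashed line marks equal change. ABCA4, CALML3, CYP1A2 and EYA2 lie far below the line, with falls called beside wild type FGFR3 and none called beside S249C.

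Among genes that averaged 2 CPM or more across all 4 groups, several of the most negative differences came from genes that were high in the EV libraries with wild type FGFR3 and low in the other groups. ABCA4, which fell by 6.03 on the log2 scale beside wild type FGFR3, was already at 0.305, 0.317 and 0.227 CPM in the S249C libraries with the empty vector and was at 0.110, 0.146 and 0.143 CPM there with UTX, a fitted -1.06 that was not called (interaction -4.97 ± 0.52, adjusted p = 0.00047). CALML3 was at 1.03, 1.31 and 0.869 CPM there and rose by 0.69 with UTX (interaction -2.97 ± 0.27, adjusted p = 0.00014). EYA2 was at 0.992, 1.27 and 1.51 CPM there, below the 6.12 CPM or more of the EV libraries with wild type FGFR3 (interaction -1.93 ± 0.26, adjusted p = 0.0026). MAP2 (-2.37), MGAM, an intestinal glucosidase (-1.95), TNN, a tenascin (-1.68), and PDE6A (-1.62) had interactions of the same sign. CYP1A2, named as a large fall, had one as well (-2.62) but averaged less than 2 CPM over the 4 groups. Its mean was 3.49 CPM in the EV libraries with wild type FGFR3 and 0.539 to 0.558 CPM in the other groups. Of the 111 genes with a lower change beside wild type FGFR3, 43 (38.7%) had all 3 EV libraries with wild type FGFR3 above all 9 other libraries of the experiment. So did 377 of the 1166 genes called lower (32.3%), 738 of all genes tested (3.80%) and 10 of the 12 largest falls. Of the 12 largest rises, 1 had these EV libraries below the other 9, namely TSPAN1. The same held for 281 of the 1758 genes called higher (16%) and 479 of all genes tested (2.47%). Since the interaction and the falls chose these genes with the same libraries, these counts are a description.

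Other differences had another form. CPVL, a carboxypeptidase, was not called beside wild type FGFR3 (-0.27) and rose beside S249C (1.62; interaction -1.89 ± 0.23, adjusted p = 0.0014). SCD was at 136 to 147 CPM in all 6 S249C libraries and at 148 to 154 CPM in the EV libraries with wild type FGFR3, and only the UTX libraries with wild type FGFR3 were lower, at 105 to 110 CPM (interaction -0.49 ± 0.06, adjusted p = 0.0017). HEY1 fell beside wild type FGFR3 (-0.91) and had a value of 0.25 beside S249C (interaction -1.16 ± 0.17, adjusted p = 0.0051), and NOTCH3, a Notch receptor, fell beside wild type FGFR3 (-0.35) and rose beside S249C (0.28; interaction -0.63, adjusted p = 0.0093). Junction genes rose beside both forms, and by less beside wild type FGFR3 for JUP (0.38 and 0.74; adjusted p = 0.021), CGN (0.67 and 1.11; adjusted p = 0.033) and OCLN (0.26 and 0.59; adjusted p = 0.044). These 3 differences were each lost when 1 of several libraries was left out, at adjusted p of up to 0.146. DNAH1, an axonemal dynein, had the largest positive interaction among named genes (2.15 ± 0.25, adjusted p = 0.00088): it was not called beside wild type FGFR3 (0.46) and fell beside S249C (-1.69).

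**Figure D5:**
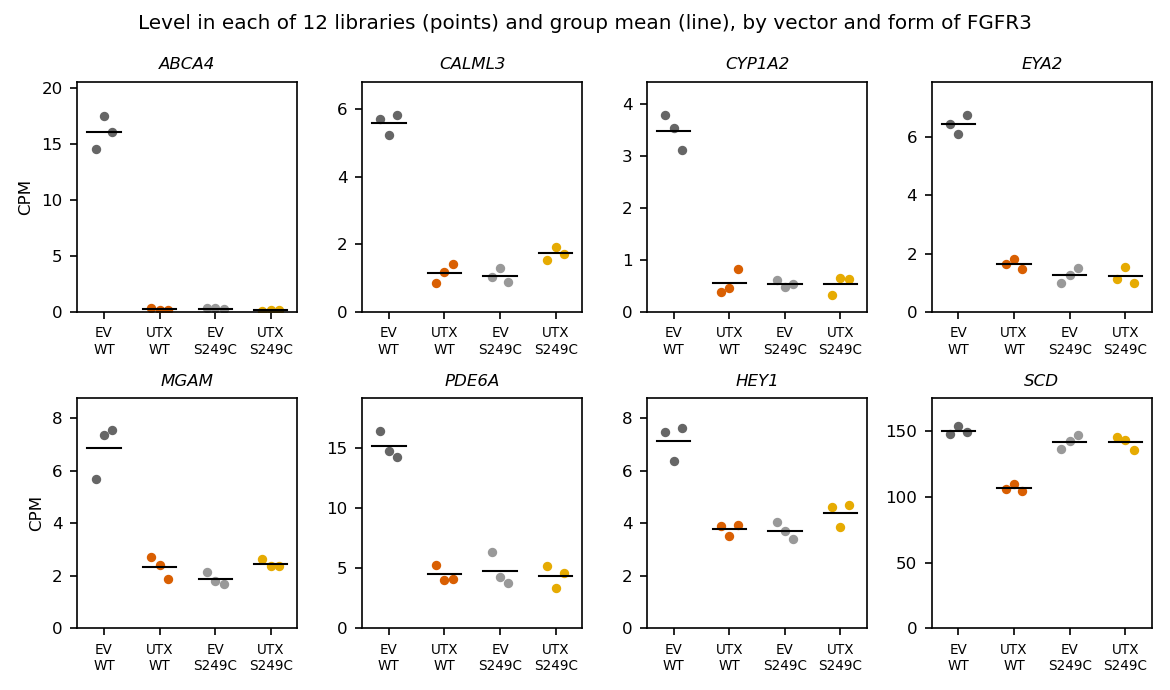
The level of 8 genes in each of the 12 libraries (CPM, linear axes from 0; lines are group means of 3), by vector (EV or UTX) and form of FGFR3 (WT or S249C). The EV libraries with wild type FGFR3 stand alone at the top for ABCA4, CALML3, CYP1A2, EYA2, MGAM, PDE6A and HEY1, whereas for SCD the UTX libraries with wild type FGFR3 stand alone at the bottom.

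The changes were also set beside those of the experiment without an FGFR3 vector, in which UTX and the empty vector were carried by pSIN vectors, libraries were made with another kit and the table was fitted on its own, so no test across experiments was made. There 30.4% of the genes tested in both were higher with UTX and 31.7% lower. Of the 1733 genes called higher beside wild type FGFR3 and tested there, 1229 (70.9%) were higher and 203 (11.7%) lower, and of 1106 called lower, 743 (67.2%) were lower and 146 (13.2%) higher. PI3 had a log2 fold change of -7.97, KRT1 of -8.83, KRT5 of -3.77 and SPP1 of -5.31 there, against -3.69, -3.09, -0.73 and -1.80 beside wild type FGFR3. Some genes had opposite signs in the 2 experiments, each past its own threshold: RAB38 was at -1.90 there and 1.90 here, PKP1 at -1.28 and 1.76, SERPINB2 at -2.48 and 1.00, CLDN1 at -0.88 and 0.58, EYA2 at 2.18 and -1.97, CALML3 at 1.99 and -2.27, and CDH2 at 3.37 and -0.48. EGR1, which rose here, was not called there (0.15, adjusted p = 0.45). TMEM265, nearly absent with the empty vector here, was at a mean of 6.34 CPM with the empty vector there. With UTX it was at 7.92 CPM there, a log2 fold change of 0.31 (adjusted p = 0.014) against 4.46 here.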

How the data were processed

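RNA was sequenced from UMUC1 cells, and the authors deposited estimated counts per gene as whole numbers, made with Salmon 0.8 per the submitters' processing notes, which also name DESeq2, hg19 and GRCh37. The annotation release is, like the counting strand, not given in the sources used here. Antisense and overlapping genes may share reads. Coordinates and names from GENCODE v29 and RefSeq are on GRCh38, not the build in those notes, and 15383 of 19399 tested genes took their name from the files and 3963 from the reference.

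All 12 libraries with an FGFR3 vector were fitted together in R 4.3.3 with edgeR 4.0.16 (filterByExpr, TMM, quasi-likelihood test, group means), so 4 groups of 3 shared 1 estimate of the spread. Calls are at a Benjamini-Hochberg adjusted p under 0.05 over all genes tested. The scripts were tested on simulated data.

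Named genes are KDM6A and FGFR3, the 12 largest rises and falls with a mean of at least 2 CPM and separate groups (symbols of clones, antisense RNAs and, by a P and digits at the end, pseudogenes left out), up to 4 genes a list by smallest adjusted p, the 6 largest interactions each way, and list members named for their role. Members and the 33 gene lists were chosen with earlier results of these data known. Alternatives were RLE size factors, DESeq2 1.42.0, no count filter, a replicate block, the 6 libraries alone and leaving out each library. Some genes of these lists are counted but not reported here by name.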

Additional observations from a re-analysis of the deposited data

Results flagged for a closer look

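For 33 named genes the UTX effect beside wild type FGFR3 differed from that beside FGFR3 S249C by the interaction term of edgeR's quasi-likelihood fit, with adjusted p from 0.00014 to 0.0495. The values that follow are the log2 fold change beside wild type FGFR3 minus that beside S249C.

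In 6 of them the effect beside wild type FGFR3 was the higher one. DNAH1, an axonemal dynein, had a difference of 2.15, ZNF618 of 1.30, ADAMTS6, a secreted metalloprotease, of 0.89, RGS2, a regulator of G protein signalling, of 0.82, and FAM20C, a secretory pathway kinase, of 0.65. The difference of 1.09 for TUT1 is uncertain, since more than 1 identifier of the table carries that name.

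Among epithelial genes with lower effects beside wild type FGFR3, the differences were -0.34 for OCLN, -0.36 for JUP, -0.44 for CGN, -0.48 for KRT13, -0.58 for IVL and -0.80 for S100A9. The mesenchymal cadherin CDH2 had -0.47, UPK1B -0.37 and the lineage factor PPARG -0.30. Receptors and secreted proteins included ERBB3 at -0.39, NOTCH3 at -0.63, SPP1 at -0.45, IGFBP2 at -0.94 and IL1RN at -1.0, and the Notch target HEY1 had -1.16. The enzymes SCD and AKR1C2 had -0.49 and -0.86, and AKR1C2 shares near-identical sequence with its paralogs.

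The remaining genes had lower effects beside wild type FGFR3 as well. PALM had -0.95, PDE6A -1.62, TNN -1.68, CPVL, a carboxypeptidase, -1.89, EYA2 -1.93, MGAM -1.95, MAP2 -2.37, CYP1A2 -2.62, CALML3 -2.97 and ABCA4 -4.97. Of the 33 differences, 18 were called in every setting tried and 15 were lost in at least 1: those of PALM, ERBB3, IL1RN, JUP, CDH2, S100A9, CGN, ADAMTS6, RGS2, FAM20C, IGFBP2, SPP1, UPK1B, PPARG and OCLN. With a replicate block those of ERBB3, IL1RN, CDH2, S100A9, CGN, RGS2, PPARG and OCLN were lost (adjusted p of 0.0556 to 0.0817), by DESeq2 those of IL1RN (0.157) and RGS2 (0.0507), and without the pair of S249C libraries that stood apart those of IL1RN (0.0961) and SPP1 (0.0527).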

How the results depend on the processing

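Across 18 other settings for the comparison beside wild type FGFR3, none of 218 named genes changed direction past its threshold, 149 of the 179 called genes kept their call in every setting and 30 lost it in at least 1, and the 24 largest rises and falls kept it. The 1758 genes called higher became 1696 with RLE size factors, 1545 with DESeq2 and 2238 with the 6 libraries alone. The 1166 genes called lower ranged from 758 (without EV replicate 3) to 1592 (without S249C UTX replicate 3) when 1 library was left out, and were 1878 without both S249C libraries that stood apart, an alternative added after seeing the data. Beside S249C, the 1672 genes called lower ranged from 1077 to 1915 with 1 library left out. The 133 interaction calls ranged from 58 to 248 with 1 library left out and were 260 without both libraries that stood apart. The cause of these shifts was not tested.

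No shared effect of the replicate number was visible: deviations of same-numbered EV and UTX libraries correlated at -0.095, -0.020 and -0.078, and UTX replicate 3 correlated best with EV replicate 1 (0.137). With 3 libraries a group, such values cannot show whether the samples were paired. With the number as a replicate block, 1667 genes were higher, 1063 lower and 80 had an interaction called. Counts of a few per gene limit the low genes, such as KRT20 and DSG1.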

Other observations

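The AP-1 site, searched on both strands as TGANTCA in the promoters at hand (250 bases before to 50 after the gene start), was in 8.11% of those of genes called higher with UTX beside wild type FGFR3, in 3.59% of those of genes called lower and in 5.18% of those of all genes tested. The share over all promoters of the table was 7.76%. These shares are a description with no test.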
